A study of Mus musculus with 24 samples.

Results

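Lung genes of xenobiotic oxidation outside the Cyp1 family were followed in mice exposed to diesel exhaust (DE) and ovalbumin (OVA). The 9 genes were the cytochrome P450 genes Cyp4b1, Cyp2b10, Cyp2s1 and Cyp2e1, their reductase Por, the flavin monooxygenases Fmo1 and Fmo2, the epoxide hydrolase Ephx1 and the aldehyde oxidase Aox3. A member was any probe set annotated with exactly 1 gene symbol that was on this list. This gave 12 of 22626 probe sets, for 8 of the 9 genes among 12393 genes named in this way, and 11 of the 12 passed the signal filter that left 13575 for testing. No annotated probe set named Por, which was not analysed here, and the probe set below the filter was 1454005_at of Fmo2.

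Total RNA from whole frozen lung was hybridised to 24 Affymetrix arrays, in 6 groups of 4. Mice given 100 ug of OVA on 3 days breathed filtered air, DE at 500 ug/m3 (DE500) or DE at 2000 ug/m3 (DE2000), for 4 hours a day on 5 days. The other 12 arrays came from mice given saline on the same schedule, again with air, DE500 or DE2000. Strain, sex and age are not given in the sources used here, nor is it stated whether replicates were separate animals, so p-values measure only the spread between these samples.

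P450 enzymes insert oxygen into fat-soluble chemicals with electrons passed on by Por, the P450 reductase. Flavin monooxygenases oxidise nitrogen and sulfur atoms, Ephx1 opens the reactive epoxides that P450 enzymes leave behind, and Aox3 oxidises aldehydes and nitrogen-containing rings. In the lung these enzymes are abundant in club cells and other epithelium, where they can clear inhaled compounds or turn them into toxic products, and exhaust particles carry many such compounds.

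Promoters from RefSeq on GRCm38.p6 were matched by symbol for 8 of the 9 genes, with 9 start sites in all. Each promoter was taken as the 250 bases before the start. Those of 3 P450 genes are shown because their genes are the ones for which induction by foreign chemicals or a fat-tissue signal is examined below. They were searched on both strands for the xenobiotic response element core GCGTG, bound by the aryl hydrocarbon receptor, for the TATA box TATAAA, for the nuclear receptor site AGGTCA and for the antioxidant element core TGACNNNGC. Capitals mark a match, read in the direction of the gene, and no matches overlapped.
Cyp2b10 promoter, chr7:25897408-25897657, plus strand: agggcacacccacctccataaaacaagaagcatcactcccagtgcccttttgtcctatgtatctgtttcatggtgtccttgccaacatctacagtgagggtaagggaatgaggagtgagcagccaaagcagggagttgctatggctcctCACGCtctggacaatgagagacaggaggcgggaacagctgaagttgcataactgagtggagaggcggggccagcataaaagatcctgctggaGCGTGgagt
Cyp2s1 promoter, chr7:25816526-25816775, minus strand: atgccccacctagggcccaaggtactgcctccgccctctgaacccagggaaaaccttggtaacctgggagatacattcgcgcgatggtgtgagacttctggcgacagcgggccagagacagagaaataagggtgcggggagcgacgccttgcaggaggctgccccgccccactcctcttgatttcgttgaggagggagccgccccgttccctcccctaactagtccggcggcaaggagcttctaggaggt
Cyp2e1 promoter, chr7:140763569-140763818, plus strand: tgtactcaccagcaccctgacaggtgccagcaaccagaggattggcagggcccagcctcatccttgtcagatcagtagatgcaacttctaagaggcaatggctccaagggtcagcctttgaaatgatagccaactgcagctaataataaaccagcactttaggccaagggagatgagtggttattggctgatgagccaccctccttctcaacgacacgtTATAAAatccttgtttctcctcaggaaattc

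The Cyp2b10 promoter held the xenobiotic core on each strand, 101 and 9 bases before the start, and the Cyp2e1 promoter held a TATA box 31 bases before it. The Cyp2s1 promoter held none of the 4 motifs in this window, nor did those of Cyp4b1 and the first start of Fmo2. Elsewhere among the genes with array data, Aox3 held GCGTG, Ephx1 held TATAAA and the second start of Fmo2 held AGGTCA. Of all 32851 promoters, 28.2% held GCGTG, 12.4% TATAAA, 14.0% AGGTCA and 10.2% TGACNNNGC, so these matches are common letters and are given as a description only.

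The lung label was matched by the markers Scgb1a1 of club cells (signal 18241 to 37883 over the 24 arrays) and Sftpc of alveolar type 2 cells (21129 to 41214), while the liver marker Alb gave 126 to 369. Signals are MAS5 intensities scaled to a trimmed mean between 499.7 and 500 per array. The arrays differed in how evenly RNA was represented along transcripts. The log2 ratio of 3' to 5' control probe sets, averaged over Gapdh and actin and called the evenness ratio (higher where the 5' end is weak), was 0.21 ± 0.58 in OVA arrays and 1.84 ± 1.28 in saline arrays (SD, n = 12 each). It ran from -0.13 to 2.02 in OVA and from 0.10 to 4.38 in saline. DE2000_OVA replicate 4, at 2.02, lay far above the other OVA arrays, and DE500_saline replicates 1 and 4 had the highest ratios of all, 4.38 and 3.77. These are called the 3 arrays apart in the ratio below. They are not apart from all others, since air_saline replicate 3 was at 2.90 and DE2000_saline replicate 1 at 2.04. DE500_saline replicates 2 and 3 were at 0.33 and 0.10, the lowest of the saline arrays. A control for the B1 repeat averaged 11.55 in OVA and 12.98 in saline on the log2 scale. It ran from 10.9 to 12.4 in OVA and from 12.1 to 13.8 in saline. With so little overlap a B1-adjusted fit cannot tell an OVA difference from a B1 difference, and its OVA values are given as a description only. Fits with the evenness ratio or the B1 signal as a covariate are named evenness-adjusted or B1-adjusted.

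**Figure D1:**
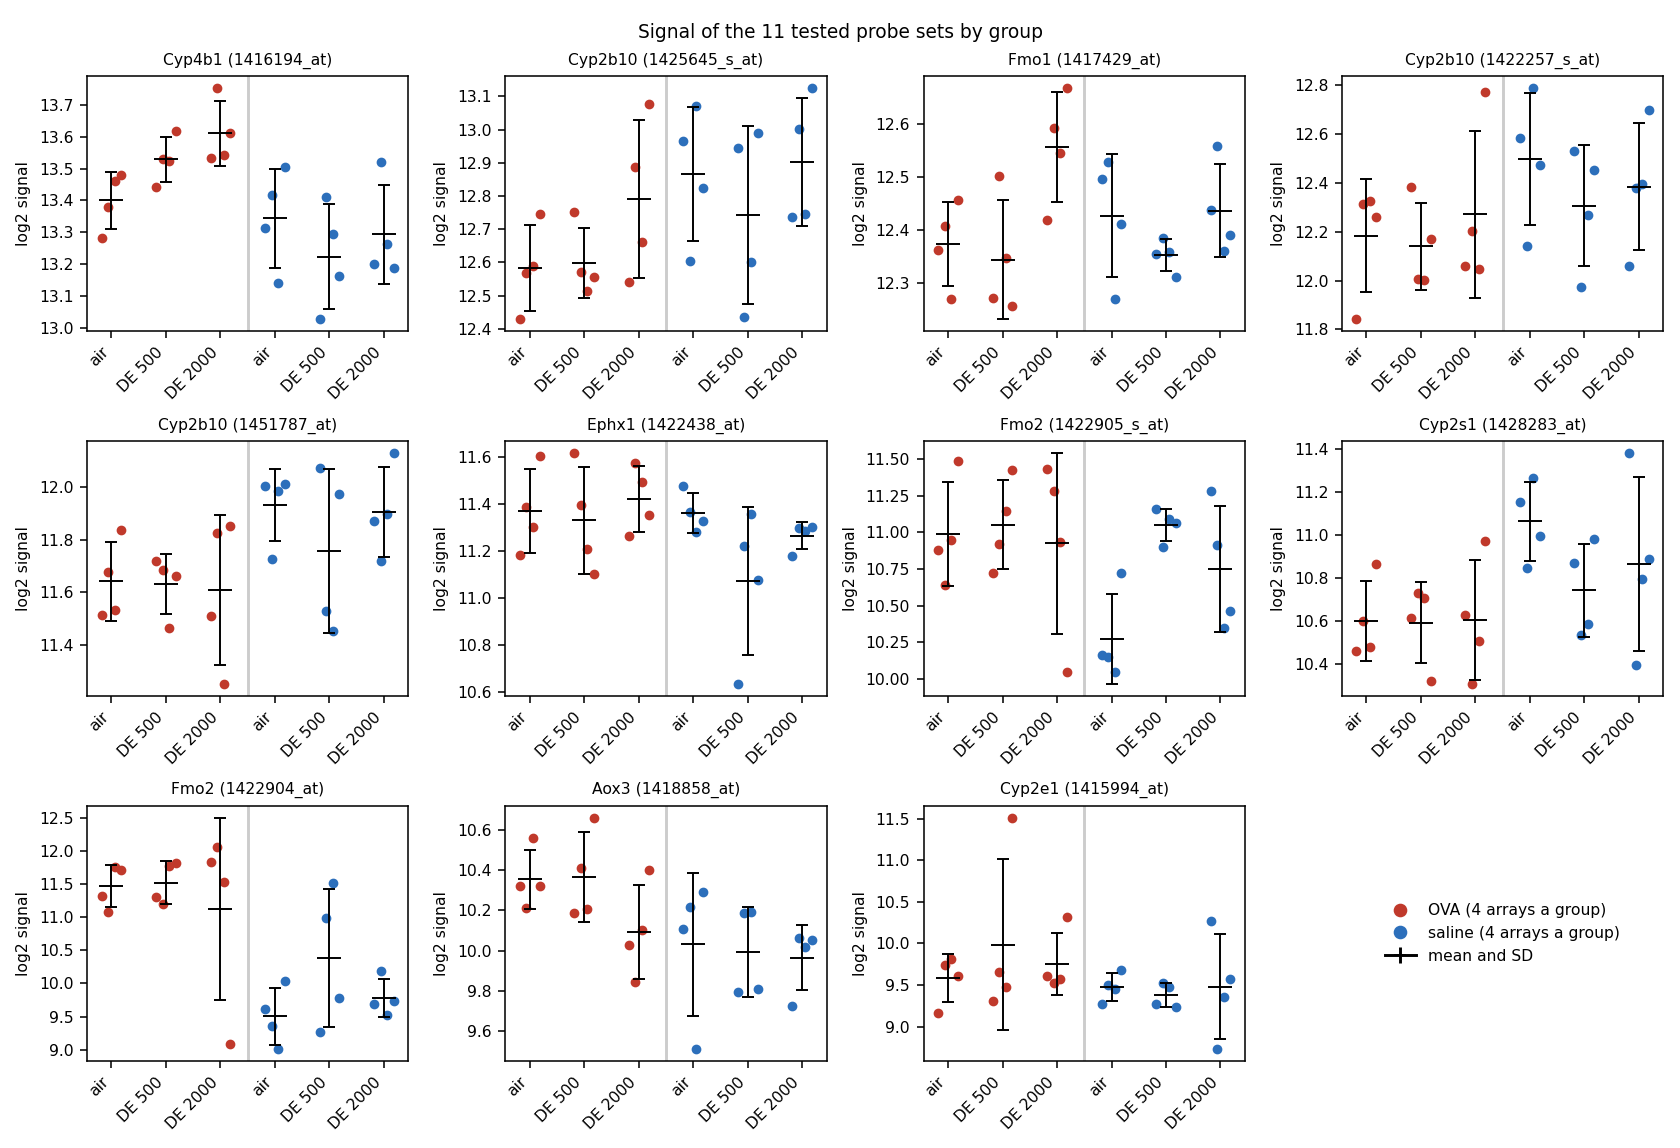
MAS5 signal of each of the 11 tested member probe sets by group, with exposure from air to 500 and 2000 ug/m3 and OVA left of saline; dots are arrays and bars the mean and SD of 4. The groups overlap in most panels; Fmo2 1422904_at is 2173 to 3446 in air with OVA against 516 to 1046 in air with saline.

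No change of the lung oxidation genes with diesel exhaust was detectable at either dose. In limma, 0 of 11 member probe sets were called at adjusted p < 0.05 in DE2000 against air in saline mice, where 0.147% of all tested probe sets were called. The count was also 0 in DE500 against air in saline (0.00737% of all), in DE2000 against air with OVA (0.0221%) and in DE500 against air with OVA (0%). Over these 44 tests the smallest adjusted p was 0.337, and 3 had an unadjusted p below 0.05. The shares of all probe sets at that unadjusted level were 5.94%, 7.9%, 8.13% and 0.921% in the same order of comparisons. The evenness-adjusted fit also called 0 of 11 in each, beside 0.464%, 0.552%, 0.0295% and 0% of all, and so did the B1-adjusted fit, beside 0.28%, 0.169%, 7.17% and 0%. The comparisons within an arm share their air arrays, and fewer cells of a type and less RNA per cell cannot be told apart in whole lung.

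Cyp2b10, which barbiturates and related chemicals induce in mouse liver through the nuclear receptor CAR, was probed by 3 probe sets, and 2 of them carry the suffix for sequences shared between transcripts, so that other Cyp2b genes may contribute. Its brightest probe set gave 8000, 6232, 8602 and 7257 in saline with air, 7889, 5540, 6219 and 8131 with DE500, and 6822, 8199, 6871 and 8942 with DE2000. These groups overlap throughout. The log2 change was 0.04 for DE2000 against air (95% interval -0.25 to 0.33) and -0.12 for DE500 against air (-0.41 to 0.17). With OVA the changes were 0.21 at DE2000 (-0.08 to 0.50) and 0.01 at DE500 (-0.28 to 0.30).

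Cyp2s1, an epithelial P450 that dioxin induces through the aryl hydrocarbon receptor, had values on the lower side with exhaust in saline mice. The signals were 2275, 1840, 2458 and 2038 with air, 1872, 1485, 1539 and 2019 with DE500, and 2670, 1348, 1777 and 1893 with DE2000. Both exhaust groups overlap air, and DE2000 holds the highest and the lowest of the 12 values. The log2 change was -0.20 at DE2000 (-0.56 to 0.16) and -0.32 at DE500 (-0.68 to 0.04). With OVA it was 0.00 at DE2000 (-0.36 to 0.37) and -0.01 at DE500 (-0.37 to 0.35).

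Cyp4b1, a lung P450 that oxidises fatty acids and turns some furans into toxic products, gave changes of -0.05 at DE2000 and -0.12 at DE500 in saline. With OVA it gave 0.21 at DE2000 (-0.00 to 0.42) and 0.13 at DE500. Fmo1, which in mice is also a major liver and kidney enzyme, was the steadiest member, with all 24 signals between 4892 and 6511. It gave 0.01 and -0.07 in saline at DE2000 and DE500. With OVA it gave 0.18 (0.00 to 0.36) and -0.03, and its DE2000 value had an adjusted p of 0.615.

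Fmo2, the main flavin monooxygenase of mammalian lung, gave the largest exhaust values, in saline mice. Its brightest probe set, 1422905_s_at, carries the suffix for sequences shared between transcripts, so other transcripts may contribute. It read 1144, 1136, 1060 and 1690 with air, 2281, 1910, 2177 and 2138 with DE500, and 2485, 1931, 1303 and 1411 with DE2000. All 4 DE500 arrays lay above all 4 air arrays, and DE2000 overlapped both. The share of all tested probe sets separated in this way is not given here, so this is a description only. The log2 change was 0.78 at DE500 (0.26 to 1.30, adjusted p = 0.337) and 0.48 at DE2000 (-0.04 to 1.0, adjusted p = 0.915), and neither passed. With OVA it was -0.06 at DE2000 and 0.06 at DE500. The difference of the DE500 effect between the arms was -0.72 (-1.45 to 0.02), with an unadjusted p of 0.0564 in limma.

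The other Fmo2 probe set above the filter, 1422904_at, gave 0.89 at DE500 (-0.11 to 1.88) and 0.28 at DE2000 in saline, against air. The probe set below the filter, 1454005_at, was not tested. Its signals in saline were 57 to 94 with air, 103 to 155 with DE500 and 79.9 to 129 with DE2000. In the evenness-adjusted fit, the DE500 change of 1422905_s_at was 0.81 (adjusted p = 0.117) and that of 1422904_at 1.12 (adjusted p = 0.0723). Without the 3 arrays named apart in the ratio, which leaves 2 DE500 saline arrays, 1422904_at gave 1.75 and passed (adjusted p = 0.00109), where 9.45% of all tested probe sets were called. In that fit 1422904_at was also at -1.47 in DE2000 against DE500 (adjusted p = 0.000953), where 15% of all were called. In both, 1 of 11 members is near the background. The same fit also called 1422904_at for the interaction of DE500 and OVA (-1.69, adjusted p = 0.0339), where 0.221% of all were called. The 2 DE500 saline arrays kept had evenness ratios of 0.10 and 0.33, the 4 DE2000 saline arrays 1.30 to 2.04 and the 4 air saline arrays 0.98 to 2.90, and the part of evenness in these calls was not tested.

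Ephx1, the microsomal epoxide hydrolase that works next to P450 enzymes, read 2852, 2640, 2488 and 2569 in saline with air, 1589, 2388, 2626 and 2159 with DE500, and 2320, 2517, 2496 and 2530 with DE2000. DE500 replicate 1 was the lowest array and had the highest evenness ratio. The change was -0.29 at DE500 (-0.57 to -0.01, adjusted p = 0.617) and -0.10 at DE2000 (-0.38 to 0.19). Aox3 gave -0.07 at DE2000 and -0.04 at DE500 in saline, and -0.26 (-0.60 to 0.08) and 0.01 with OVA.

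Cyp2e1, which oxidises ethanol and small solvents, gave 0.00 at DE2000 and -0.10 at DE500 in saline, with the wide interval of -0.71 to 0.72 at DE2000. Counting 1 probe set per gene, 4 of 8 member genes had a value above 0 at DE2000 and 1 of 8 at DE500 in saline, where 48.5% and 47.8% of all tested probe sets did. With OVA the counts were 6 and 5 of 8, against 43.8% and 49.7% of all. The median changes of the 8 genes were -0.02 and -0.11 in saline and 0.11 and 0.01 with OVA, while those of all tested probe sets lay between -0.04 and 0.00.

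The doses were also set against each other, and the exhaust effect was compared between arms. Between DE2000 and DE500, 0 of 11 were called in saline (0.0516% of all) and with OVA (0.0147%); 0 and 1 had an unadjusted p below 0.05, beside 5.34% and 10% of all, the 1 being Fmo1 with OVA (0.21 ± 0.09 SE, adjusted p = 0.444). The interaction of exhaust and OVA gave 0 of 11 at DE2000 and at DE500, with 0% of all probe sets called in limma and 0 members at an unadjusted p below 0.05, beside 6.11% and 3.09% of all. The average of both arms at DE2000 also gave 0 calls (0.0884% of all) and 0 at an unadjusted p below 0.05 (7.52% of all).

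**Figure D2:**
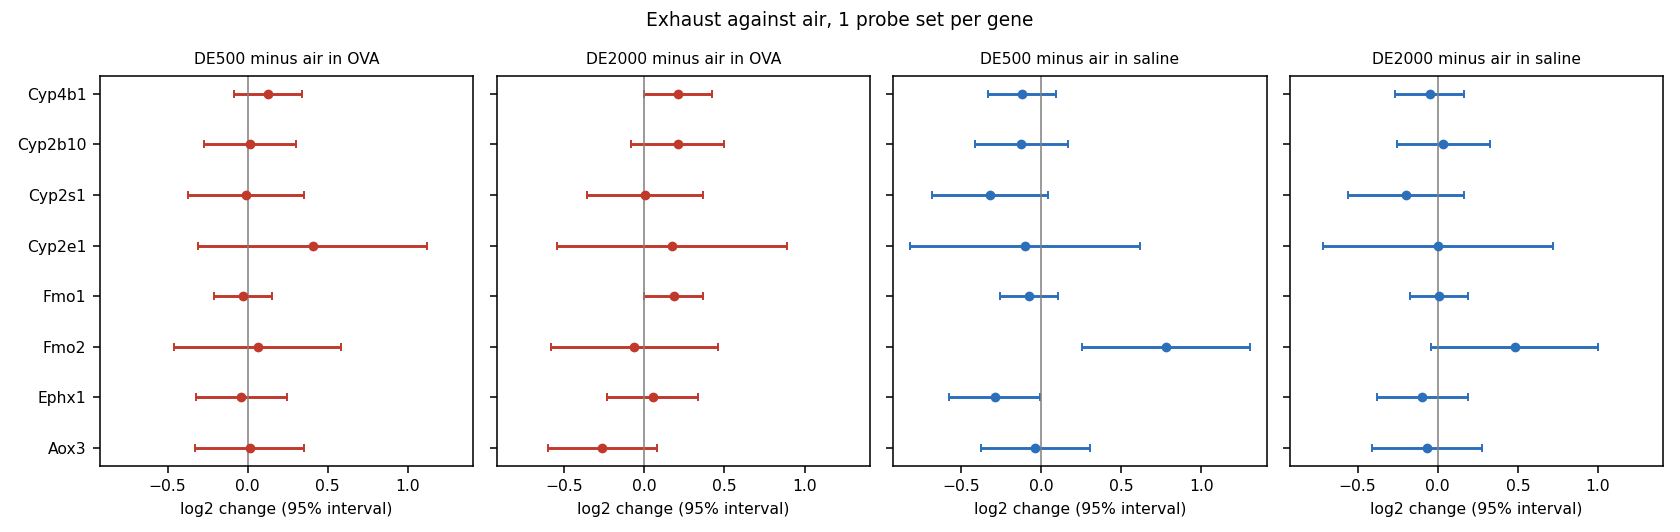
Log2 change of DE against air for the brightest probe set of each of 8 genes, in 4 panels for both doses in each arm; points are limma estimates and bars 95% intervals. Most intervals hold 0, and the point farthest from it is Fmo2 at DE500 in saline, at 0.78.

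OVA treatment was accompanied by differences in 5 of the 11 member probe sets, averaged over the 3 exposures. Those of Fmo2 (1422904_at), Cyp4b1 and Aox3 rose, and those of Cyp2s1 and Cyp2b10 (1451787_at) fell. This share stands beside 46.3% of all tested probe sets called in the same comparison (22.7% higher, 23.6% lower), so it is near the background and is not a result about these genes. Without DE2000_OVA replicate 4 the count was 8 of 11, where 50.3% of all were called. By 1 probe set per gene, 3 of 8 were called, and the median change was 0.18 against -0.01 for all tested probe sets. The evenness-adjusted fit called 0 of 11, where 14.1% of all were called, and the B1-adjusted fit 0 of 11, where 4.1% were. The arms barely overlap in B1, so the latter count cannot separate OVA from B1.

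Cyp4b1, the fatty acid and furan oxidase, rose with OVA on average. With OVA its signals were 9960, 10656, 11269 and 11431 with air, 11135, 11836, 11786 and 12560 with DE500, and 11859, 13812, 11928 and 12516 with DE2000. With saline they were 10178, 10943, 9029 and 11615 with air, 8353, 10892, 10054 and 9169 with DE500, and 9409, 11751, 9837 and 9342 with DE2000. The arms overlap in air and do not overlap at either exhaust dose. The share of all probe sets with such arms is not given here, so this is a description only. At DE500 31.8% of all had an unadjusted p below 0.05 in limma for OVA, and at DE2000 18.1% were called.

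Averaged, Cyp4b1 was 1.17-fold higher with OVA (log2 change 0.23 ± 0.06 SE, adjusted p = 0.00379). By exposure the change was 0.06 in air, 0.30 at DE500 (adjusted p = 0.0534) and 0.32 at DE2000 (adjusted p = 0.0356), and the interaction with DE2000 was 0.26 (-0.04 to 0.56, unadjusted p = 0.0878 in limma). Adjusted for evenness the averaged change was 0.11 (adjusted p = 0.281). Median scaling also ended the averaged call (adjusted p = 0.0585). The DE2000 call was lost without any 1 of DE2000_OVA replicates 2 and 3 and DE2000_saline replicates 1, 3 and 4 (adjusted p up to 0.110), and under 7 of 11 other alternatives.

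Cyp2s1 differed the other way. With OVA its signals were 1411, 1552, 1425 and 1862 with air, 1567, 1699, 1669 and 1278 with DE500, and 1580, 1266, 1457 and 2007 with DE2000. Its saline signals, listed above, ran from 1348 to 2670, so the arms overlap. It fell with OVA by 0.29 on average (adjusted p = 0.0218), and in air alone the change was -0.46 (adjusted p = 0.0739). The evenness-adjusted average was -0.07 (adjusted p = 0.750) and the B1-adjusted one 0.057.

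The 3 probe sets of Cyp2b10 gave similar differences with OVA, of which 1 passed. The probe set 1451787_at, at 2439 to 3699 with OVA and 2807 to 4484 with saline, fell by 0.24 (adjusted p = 0.0268). The probe sets 1425645_s_at and 1422257_s_at gave -0.18 (adjusted p = 0.0721) and -0.20 (adjusted p = 0.116). Adjusted for evenness these 3 values were -0.03, 0.03 and 0.03. The call of 1451787_at was also lost on leaving out any 1 of DE2000_OVA replicate 3, DE2000_saline replicate 4 and DE500_saline replicates 1 and 4 (adjusted p from 0.0520 to 0.0544).

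Aox3 read 1281, 1185, 1514 and 1280 with OVA and air, 1165, 1364, 1181 and 1623 with OVA and DE500, and 1043, 918, 1098 and 1354 with OVA and DE2000. With saline it read 1102, 1191, 728 and 1252 in air, 888, 1166, 1170 and 895 at DE500, and 845, 1069, 1038 and 1061 at DE2000. The lowest of the 24 values, 728, came from air_saline replicate 3, whose Gapdh and actin ratios were 3.05 and 2.75. Aox3 rose 1.21-fold on average (0.28 ± 0.10 SE, adjusted p = 0.0215), while median scaling (adjusted p = 0.0907), the evenness covariate (0.13, adjusted p = 0.521) and leaving out the 3 arrays apart in the ratio (adjusted p = 0.148) each ended the call.

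The 6 member probe sets not called for OVA on average were those of Ephx1 (0.14, -0.02 to 0.30), Fmo1 (0.02, -0.09 to 0.12), Cyp2e1 (0.33, -0.09 to 0.74), 1422905_s_at of Fmo2 (0.30, -0.00 to 0.60), and 1425645_s_at and 1422257_s_at of Cyp2b10, given above. Within single exposures, 1 of 11 was called in air (Fmo2 1422904_at, with 14.8% of all called). At DE500 0 of 11 were called (12.5% of all; 3 members at an unadjusted p below 0.05 in limma, beside 31.8% of all), and at DE2000 1 of 11 (Cyp4b1, 18.1% of all). Each of these counts was 0 in the evenness-adjusted fit, against 1.77%, 1.16% and 15.7% of all, and in the B1-adjusted fit, against 0.206%, 0.354% and 9.27%.

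**Figure D3:**
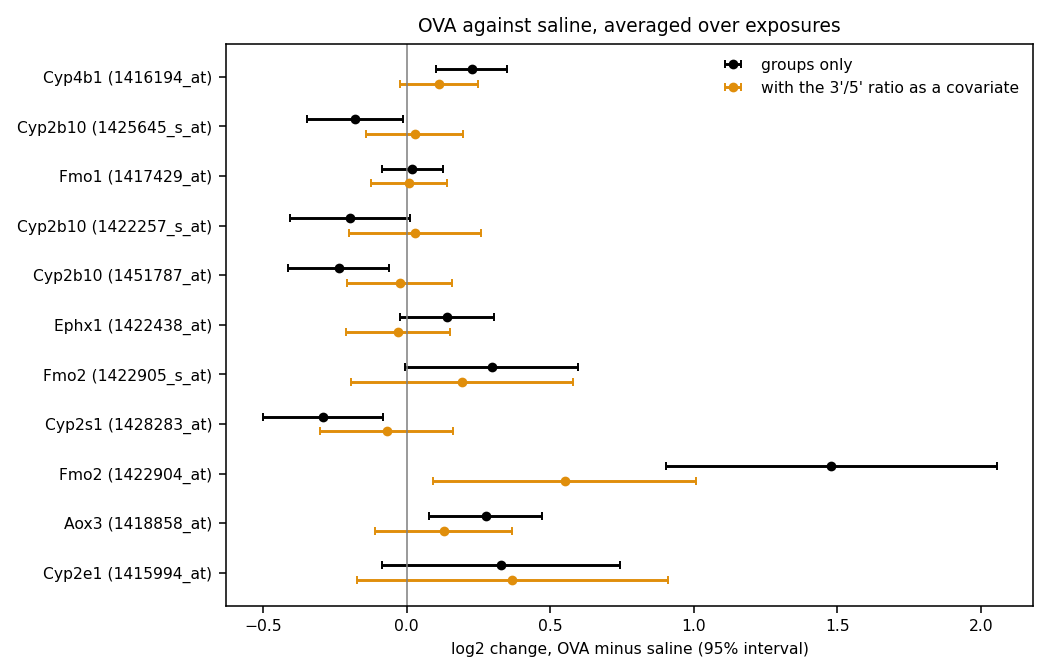
Log2 change of OVA against saline, averaged over exposures, for the 11 member probe sets, with groups only and with the evenness ratio added; points are limma estimates and bars 95% intervals. Fmo2 1422904_at goes to 0.55 with the ratio, against 1.48 without it, and the 3 Cyp2b10 probe sets lie near 0 with it.

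The probe sets of Fmo2 were all higher with OVA on average but differed in the size and the call of the change. In air, 1422905_s_at gave 0.72 and did not pass, and the untested 1454005_at read 143 to 195 with OVA and 57.0 to 94.0 with saline. On average 1422905_s_at passed without DE2000_OVA replicate 4 (0.39, adjusted p = 0.0105), where 50.3% of all tested probe sets were called. The probe set 1422904_at read 2559, 2173, 3446 and 3352 with OVA in air, against 786, 655, 516 and 1046 with saline in air. These groups do not overlap, and the share of all probe sets that do so is not given here. At DE500 it read 2533, 2338, 3511 and 3603 with OVA against 619, 2033, 2925 and 878 with saline. At DE2000 it read 3638, 4260, 2954 and 541 with OVA against 823, 1170, 736 and 851 with saline.

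In DE500_saline the low arrays were replicates 1 and 4, and in DE2000_OVA the low array was replicate 4. These are the 3 arrays named above for their evenness ratios. Averaged, 1422904_at rose 2.79-fold with OVA (1.48 ± 0.28 SE, adjusted p = 0.000214) and in air 3.9-fold (1.96 ± 0.48 SE, adjusted p = 0.0131). At DE2000 the change was 1.34 (adjusted p = 0.0559), and 2.02 without DE2000_OVA replicate 4 (adjusted p = 0.000548). The air call was lost without air_saline replicate 3 (adjusted p = 0.0582). The evenness-adjusted average was 0.55 (0.09 to 1.01, adjusted p = 0.101), and the B1-adjusted one -0.23 (adjusted p = 0.735).

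Over the arrays, 13 had a ratio from -0.13 to 0.33 and 1422904_at signals from 2033 to 4260, and the other 11 had a ratio from 0.98 to 4.38 and signals from 516 to 1170. This division was made after the values were seen and is a description with no test. The log2 difference of 1422904_at minus 1422905_s_at ran from 0.09 to 0.81 in the 13 arrays and from -1.88 to -0.54 in the 11. The 13 included 2 saline arrays, DE500_saline replicates 2 and 3, and the 11 included 1 OVA array.

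**Figure D4:**
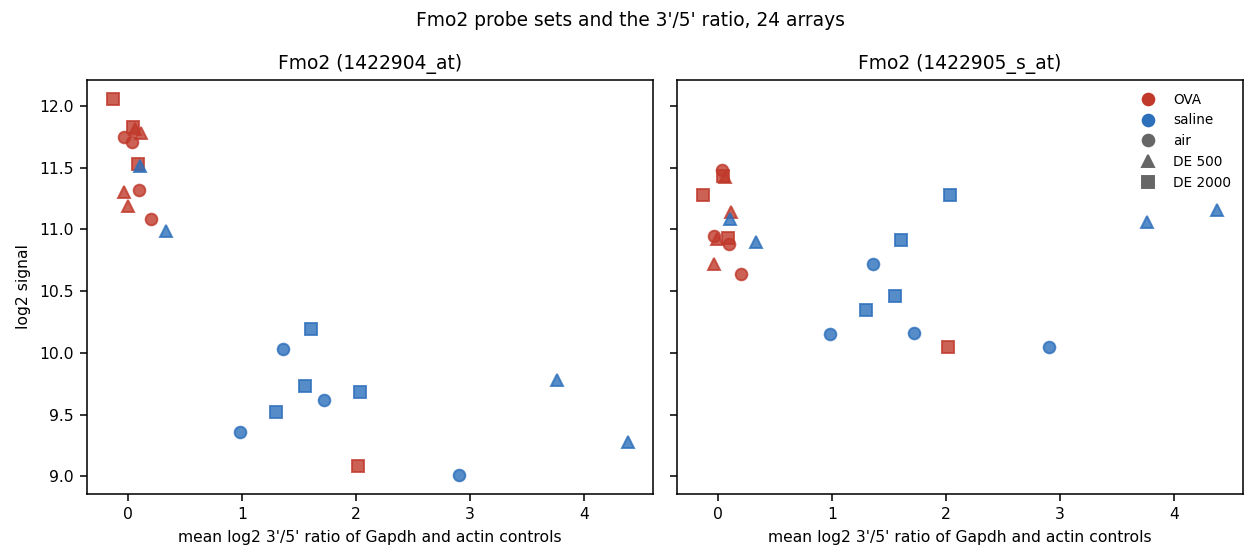
Log2 signal of Fmo2 probe sets 1422904_at and 1422905_s_at in 2 panels against the evenness ratio (log2, mean of both controls), 1 dot per array. In the first panel the 13 arrays with ratios up to 0.33 lie above the 11 arrays with ratios from 0.98; the second panel shows no such gap.

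The slope of each member on the evenness ratio was fitted within groups. The ratio spread most within DE500_saline (0.10 to 4.38) and little within air_OVA (-0.03 to 0.20) and DE500_OVA (-0.04 to 0.12). The slopes, and the evenness-adjusted values, therefore rest mainly on few arrays. The slope passed for 7 of 11 probe sets, against 37.9% of all tested (22.3% lower, 15.6% higher). Per log2 unit of the ratio, Fmo2 1422904_at changed by -0.57 ± 0.09 (SE, adjusted p = 2.44e-05), Ephx1 by -0.11 and Cyp4b1 by -0.07. The 3 Cyp2b10 probe sets changed by 0.13, 0.13 and 0.14 and Cyp2s1 by 0.14. Values for Aox3 (-0.09), Fmo2 1422905_s_at (-0.06), Fmo1 (-0.01) and Cyp2e1 (0.02) did not pass. In the 5 probe sets called for OVA, the OVA difference and this slope had opposite signs, though the Aox3 slope did not pass. The share of all called probe sets with opposite signs was not counted, so this is a description only. The part of evenness in the OVA differences was not tested.

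Cyp2e1, the solvent-oxidising P450, varied between single arrays rather than groups. With OVA it read 573, 857, 898 and 783 in air, 632, 805, 712 and 2929 at DE500, and 780, 734, 763 and 1274 at DE2000. With saline it read 618, 726, 703 and 820 in air, 619, 738, 714 and 603 at DE500, and 1231, 424, 653 and 765 at DE2000. Replicate 4 of DE500_OVA was the highest array, followed by replicate 4 of DE2000_OVA and replicate 1 of DE2000_saline, and replicate 2 of DE2000_saline was the lowest.

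The OVA change of Cyp2e1 was 0.61 at DE500 (adjusted p = 0.230) and 0.10 without DE500_OVA replicate 4. The DE500 change with OVA was 0.41, and -0.10 without that array. Adipoq, the fat cell hormone adiponectin, read 1327 in the highest Cyp2e1 array, 584 and 568 in the next ones and 71.9 in the lowest. Fabp4, a fatty acid carrier of fat cells that macrophages also make, read 3718, 2398, 3107 and 580 in the same 4 arrays.

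Of 8307 other tested genes, each represented by its brightest probe set, Adipoq was the one whose log2 signals were most like those of Cyp2e1, with r = 0.9 (Spearman's rho 0.783) over 24 arrays and r = 0.912 for deviations from group means. Without DE500_OVA replicate 4 these were 0.856 and 0.859, and without it and DE2000_saline replicate 2, the arrays farthest from the Adipoq median, r was 0.819 over 22 arrays. The values are a description of a gene picked as the best of many. Of the 5 fat markers 3 were on the array with a single symbol, and Lep was below the filter. Their summed signal ran from 1193 to 5103 in OVA arrays and from 677 to 3714 in saline arrays. Adipoq itself rose with OVA (0.70, adjusted p = 0.0313; 0.80 adjusted for evenness, adjusted p = 0.123) and Fabp4 gave -0.11. The part of fat tissue in the Cyp2e1 signals was not tested.

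**Figure D5:**
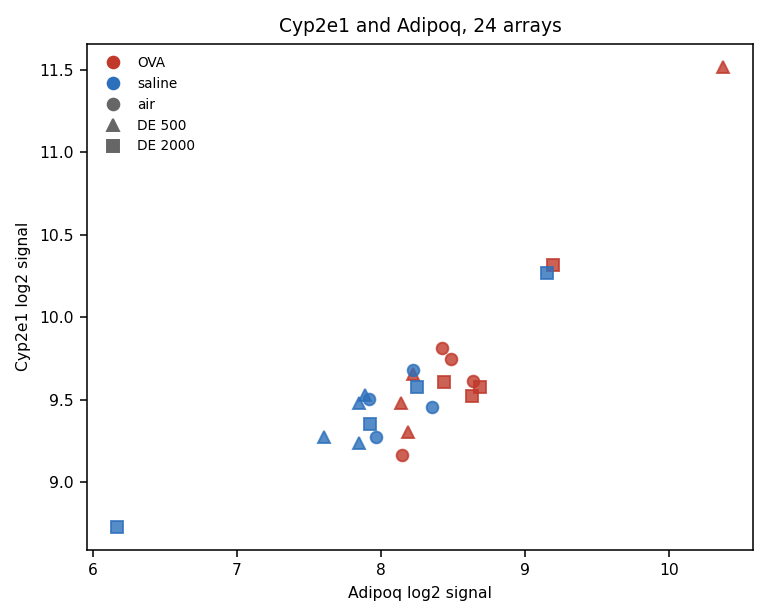
Log2 signal of Cyp2e1 against that of Adipoq, 1 dot per array, marked by group. DE500_OVA replicate 4 lies at the top right and DE2000_saline replicate 2 at the bottom left, and r is 0.9 over all 24 arrays.

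The genes most like the other members were found in the same way, and most were themselves correlated with the evenness ratio. Selenbp1, a selenium-binding protein, was most like Cyp2b10 (r = 0.897; r with the ratio 0.853 for Selenbp1 and 0.702 for Cyp2b10). Pdgfra, a growth factor receptor of fibroblasts, was most like Cyp4b1 (0.859; -0.731 with the ratio for Pdgfra and -0.687 for Cyp4b1). Gstm2, a glutathione transferase, was most like Ephx1 (0.857), and Edem3, which trims glycans in the endoplasmic reticulum, most like Aox3 (0.885). Adh7, a retinol-oxidising alcohol dehydrogenase, was most like Fmo2 (0.837), while the coatomer subunit Copz2 was most like Cyp2s1 (0.815). Fmo1 had the weakest best match, the tetraspanin Tspan31 (0.681).

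For deviations from group means the best matches were the calcium-binding S100a6 for Cyp2b10 (0.863), the prohibitin Phb2 for Cyp2s1 (0.826) and Lox, which cross-links collagen, for Cyp4b1 (0.864). They were the Wnt antagonist Sfrp1 for Fmo1 (0.743), the vesicle protein Sft2d2 for Fmo2 (0.752), the oxidase subunit Cox8a for Ephx1 (0.843) and the thrombin-binding Thbd for Aox3 (0.854). These r are over 24 arrays, whose values share the differences in evenness, and are given with no p.

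Other genes of xenobiotic metabolism were taken from a list of 89, of which 72 were on the array and 38 passed the filter. In each of the 4 comparisons of DE with air, 0 of 38 were called in limma. At an unadjusted p below 0.05 there were 2 at DE2000 and 3 at DE500 in saline, and 3 at DE2000 and 0 at DE500 with OVA. Alas1, the first enzyme of heme synthesis and so of the P450 cofactor, had the smallest p. It read 2396, 2562, 2562 and 3072 with DE2000 and 4197, 4063, 3239 and 4065 with air in saline mice. These groups do not overlap, and the share of all probe sets that do so is not given here. The change was -0.55 ± 0.13 (SE, adjusted p = 0.111), and in the evenness-adjusted fit it fell by 0.55 (adjusted p = 0.0449); in the B1-adjusted fit the adjusted p was 0.0657.

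At DE500 in saline Alas1 read 3265, 2816, 2442 and 2808, a change of -0.46 (adjusted p = 0.259). With OVA the change at DE2000 was -0.30 (adjusted p = 0.593). Averaged over both arms at DE2000 it was -0.43 ± 0.09 (SE, adjusted p = 0.0778), with adjusted p = 0.0338 in the evenness-adjusted and 0.0391 in the B1-adjusted fit. Adjusted for evenness, Alas1 was the only one of the 38 genes called in a comparison of DE with air, that average included. Its calls were for DE2000 in saline, where 0.464% of all tested probe sets were called, and for the average, where 0.228% were. The B1-adjusted fit called Alas1 for the average, where 0.331% of all were called. It also called Aldh1a1, an aldehyde dehydrogenase that makes retinoic acid, for DE2000 against air with OVA (0.36 ± 0.11 SE, adjusted p = 0.0482), where 7.17% of all were called. With groups only, Aldh1a1 gave 0.30 there (adjusted p = 0.593).

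With OVA, averaged over exposures, 7 of the 38 rose and 5 fell, beside 46.3% of all probe sets called. Sult1d1, a sulfotransferase, had the smallest p, with 269 to 411 in the 12 OVA arrays and 61.8 to 375 in the 12 saline arrays (1.46 ± 0.22 SE, adjusted p = 2.58e-05). Aldh2 (0.35) and Aldh3a2 (0.49), which oxidise aldehydes, and the electron carrier Cyb5a (0.28) also rose, while the fatty acid P450 genes Cyp4f13 and Cyp4f15 fell by 0.55 and 0.49. In the evenness-adjusted fit 2 rose and 3 fell, among them Sult1d1 (0.78, adjusted p = 0.0107), which gave 0.34 in the B1-adjusted fit (adjusted p = 0.596). The B1-adjusted fit called 0 of the 38. These 2 fits called 14.1% and 4.1% of all probe sets.

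Of 13 regulators of these genes 12 were on the array and 7 passed the filter, and 0 were called in limma in any of the 4 comparisons of DE with air, with 1 at an unadjusted p below 0.05, at DE500 in saline. The liver-enriched factor Cebpa gave -0.42 at DE500 in saline (adjusted p = 0.393) and -0.22 at DE2000. With OVA on average, 2 of the 7 were called, beside 46.3% of all probe sets, so this is not a result about regulators. They were Foxa1, a pioneer factor of lung epithelium (0.39 higher), and the retinoid receptor Rxrb (0.52 lower). When adjusted for evenness, 0 of the 7 were called, where 14.1% of all were. Markers of club cells, where several members are made, gave summed signals of 96520 to 143909 with OVA and 99548 to 157592 with saline. In the 4 comparisons of DE with air and for OVA on average, 0 of 7 were called. For OVA, 1 had an unadjusted p below 0.05 in limma. For DE2000 against air with OVA, 2 were at that level (8.13% of all) and all 7 were above 0 (43.8% of all). All 7 alveolar type 2 and all 5 heart muscle markers were above 0 there too. So were 4 of 5 alveolar type 1, 3 of 5 fibroblast, 2 of 6 endothelial and 1 of 3 ciliated cell markers. The counts of club markers above 0 were 4 at DE500 with OVA, and 2 at DE2000 and 3 at DE500 in saline. The B1-adjusted fit called the club marker Aldh1a1 for DE2000 against air with OVA, where 7.17% of all were called. Adjusted for evenness, 2 of the 7 club markers were higher with OVA on average, Scgb3a1 and Bpifa1, beside 14.1% of all called.

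Among 6 further marker lists, only the endothelial one had a larger share called for OVA on average (83.3%) than all probe sets (46.3%). Its called markers went both ways. Of 6 endothelial markers, the adhesion molecule Pecam1 (0.84) and the angiopoietin receptor Tek (0.33) rose, and Vwf, Kdr and Cldn5 fell by 0.54, 0.37 and 0.24. Their summed signal was 23604 to 26736 with OVA and 25117 to 29772 with saline. Of 7 alveolar type 2 markers 2 were called, with sums of 90153 to 147966 with OVA and 98701 to 134510 with saline. Of 5 alveolar type 1 markers 1 was called, with sums of 26716 to 37849 with OVA and 25192 to 38658 with saline. Of 5 fibroblast markers 2 were called, with sums of 15599 to 19005 with OVA and 13885 to 19330 with saline, and of 3 ciliated cell markers 0. Of 5 heart muscle markers 2 were called, with sums of 8335 to 16459 with OVA and 5773 to 20271 with saline. All these sums overlap between the arms, and 46.3% of all probe sets were called in the same comparison. Adjusted for evenness, 1 endothelial marker (Vwf) and 1 alveolar type 1 marker (Pdpn) were called among these 6 lists, where 14.1% of all were. In the B1-adjusted fit 1 endothelial marker (Pecam1) was called, where 4.1% of all were. The part of these cells in the OVA values of the members was not tested.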

How the data were processed

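The deposited table holds 1 linear intensity per probe set and array, computed by the authors with MAS5 per the submitters' processing notes, with no version given in the sources used here. Control probe sets (64) were set aside. Signals were taken to log2 with no pseudocount, and the 13575 probe sets whose mean exceeded the 40th percentile, or 138 as a signal, were tested. One fit in limma 3.58.1 under R 4.3.3, moderated with a mean-variance trend, gave each of the 6 groups a mean. It was tested on simulated data. For 13 comparisons p-values were adjusted by Benjamini-Hochberg over all tested probe sets. A gene was represented by its brightest probe set, except where further probe sets differed. Genes outside the 9 were named by smallest p (at most 6 called per list) or highest r. Symbols come from the array's platform annotation. The precision is limited by 4 arrays a group. Alternatives covered scaling, filter, pseudocount, trend, groups fitted, RNA-evenness covariates, a replicate block and leaving out arrays. The genes, lists and alternatives were chosen with earlier results of these data known.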

Additional observations from a re-analysis of the deposited data

Results flagged for a closer look

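In 7 of 66 combinations of a member probe set and a group of 4, a single array lay far from the other 3 by Dixon's test at the 95% level, where chance gives about 1 in 20. Cyp2e1 was high at 2929 in DE500_OVA replicate 4, with 632, 805 and 712 in the others, and at 1274 in DE2000_OVA replicate 4. Fmo2 1422905_s_at was high at 1690 in air_saline replicate 4. DE2000_saline replicate 1 was low in Aox3 at 845 and in Ephx1 at 2320. For Cyp2b10, 1422257_s_at was low at 3671 in air_OVA replicate 1 and 1451787_at was low at 3389 in air_saline replicate 2. The causes were not tested.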

How the results depend on the processing

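The 0 calls among members for DE2000 against air in either arm, DE500 against air with OVA, DE2000 against DE500 with OVA, the DE2000 average and the DE2000 interaction held under the 11 alternatives and when any 1 of the 24 arrays was left out. Without the 3 arrays apart in the evenness ratio, 1 member, Fmo2 1422904_at, was called for DE500 against air in saline (1.75, with 9.45% of all probe sets called), DE2000 against DE500 in saline (-1.47, 15%) and the DE500 interaction (-1.69, 0.221%). The OVA counts moved more, and the share of all probe sets called, in brackets, moved too. In air, where 1 was called (14.8%), quantile normalization gave 2 (16.8%), no filter 2 (7.29%), only the groups compared 3 (24.7%) and leaving out the 3 arrays 3 (29.3%), and both covariates gave 0. At DE500, where 0 were called (12.5%), quantile normalization gave 1 (14.3%) and the 60th percentile filter 1 (16.3%). At DE2000, where 1 was called (18.1%), no filter (10.7%), only the groups compared (12.8%), no trend (17.7%) and both covariates gave 0, the 60th percentile filter 2 (21.4%) and leaving out the 3 arrays 3 (32.5%). On average, where 5 were called (46.3%), median scaling gave 3 (46.1%) and both covariates 0; fitting only the groups compared changes nothing there, since all 6 are used.

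With B1 as a covariate the averaged OVA change took the other sign in Fmo2 1422904_at (-0.23), Cyp2s1 (0.057) and Cyp2b10 1451787_at (0.10). The arms barely overlap in B1, so these values cannot separate OVA from it. Leaving out 1 array gave 0 to 2 calls for OVA in air, 0 to 2 at DE500, 0 to 2 at DE2000 and 4 to 8 on average. The average was 8 without DE2000_OVA replicate 4 (50.3%). In air it was 0 without air_saline replicate 3 (3.31%) and 2 without air_saline replicate 4 (14.4%) or DE2000_OVA replicate 4 (19.4%). At DE500 it was 2 without DE2000_OVA replicate 4 (18%) or DE500_saline replicate 3 (25.8%), and 1 without DE2000_saline replicate 2, DE500_saline replicate 2 or air_saline replicate 3 (11.2% to 23%). At DE2000 it was 0 without DE2000_OVA replicate 2 or 3 or DE2000_saline replicate 1, 3 or 4 (12.8% to 13.0%), and 2 without DE2000_OVA replicate 4 or DE500_saline replicate 1 or 3 (20% to 24.8%). Why the counts moved was not tested.

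Same-numbered replicates did not deviate together (60 pairs, mean r 0.0269, from -0.427 to 0.594, 21 above 0.1). With the replicate number as a block, 1 member was called for OVA at DE500, Cyp4b1 (0.30, adjusted p = 0.0407, with 12.8% of all called), and the other counts stayed within 1.5 times. The limits are 4 arrays a group, the overlap of OVA with RNA evenness and with the B1 signal, and Por, which was not analysed here.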
